A study of Mus musculus with 4 samples.

Results

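The cytochromes P450 of the Cyp3a family and their electron donor Por, NADPH-cytochrome P450 reductase, were measured in the livers of mice given an antisense oligonucleotide (ASO) named for the lipid droplet protein Plin2. The members were all non-control probes of the arrays whose gene name is Por or begins with Cyp3a. There were 9 such probes among 41174, 8 for Cyp3a genes and 1 for Por, and they named 7 of the 27962 gene names on the arrays: Cyp3a11, Cyp3a13, Cyp3a16, Cyp3a25, Cyp3a41, Cyp3a44 and Por. Of these probes 8 were among the 25843 that entered the test, and the remaining one, the second probe of Cyp3a25, is described without a test. No probe of another Cyp3a gene was named on the arrays.

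All 8 mice were C57BL/6 males on a high-fat diet with free access to food and water. The control group (4 mice, numbered 1, 2, 4 and 5) received a scrambled oligonucleotide, and the other group (4 mice, numbered 6, 7, 9 and 10) received the Plin2 antisense oligonucleotide. Both oligonucleotides were injected intraperitoneally at 25 mg/kg, 2 times per week for 4 weeks. Each of 4 Agilent arrays of 2 colours held the RNA of 1 control liver in Cy5 and 1 liver labelled Plin2-ASO in Cy3, and the dyes were never exchanged. No age is given, every mouse of both groups carried an oligonucleotide, and there was no uninjected mouse or chow-fed mouse to set beside them.

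Cyp3a enzymes are haem proteins of the endoplasmic reticulum that oxidise steroids, bile acids and a large share of lipophilic drugs, and the liver holds most of them. Por passes electrons from NADPH to these and to nearly all other microsomal P450 enzymes, so it serves the whole class and not the Cyp3a family alone. Transcription of mouse Cyp3a genes is driven by the xenobiotic receptors PXR (Nr1i2) and CAR (Nr1i3) together with liver factors such as HNF4A. Several members follow sex and age: Cyp3a41 and Cyp3a44 are known as female-predominant in adult mouse liver, and Cyp3a16 as a fetal and neonatal form.

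The targeted gene was examined first. The Plin2 probe, carried under the old symbol Adfp, had log2 ratios of livers labelled Plin2-ASO over control of 0.24, 0.15, 0.83 and 0.36 on arrays 1 to 4. Its mean was 0.40 ± 0.15 (SE, n = 4 arrays), with an adjusted p of 0.148 by limma. The ratio was above 0 on every array, so the targeted transcript was not lower in the livers named for its antisense oligonucleotide. The labels do not say where on the transcript the oligonucleotide binds, and every direction below rests on the dyes stated in the labels. If those were exchanged, each direction would be mirrored. Because 1 dye was used for each group throughout, dye and group cannot be told apart.

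The median deposited spot intensity, before background correction, ranged from 243.7 to 499.3 in the green channel and from 255.6 to 636.9 in the red channel, and 59.9% to 70.1% of probes were well above background. Precision was limited by the number of arrays, which was 4. Array 3 stood apart: its ratios had a mean correlation of 0.33 with those of the other arrays, against 0.52 to 0.65 for the others, and 7.61% of its spots were marked as outliers by the scanning software, against 1.503% to 3.83%. Its ratios also followed the GC content of the probes most strongly (r = -0.30 across probes, which are not independent replicates). Array 4 came near it with the opposite sign (r = 0.25), and arrays 1 and 2 had r of 0.04 and 0.07. Values for the members without array 3 are therefore given with the tests below. The labels call the arrays biological replicates and name each mouse once.

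Several members lie so close together that the sequence and position of their probes matter for reading their values. In mouse build mm7, as the array files give it, the 7 Cyp3a probes other than that of Cyp3a13 lie within 414.5 kb on the minus strand of chromosome 5, and the Cyp3a13 probe lies 7.65 Mb away on the same chromosome. The probe of Cyp3a41 (chr5:144587472-144587531) and both probes of Cyp3a44 (chr5:144587558-144587617 and chr5:144587795-144587854) fall within 383 bases of each other, although RefSeq lists Cyp3a41a, Cyp3a41b and Cyp3a44 as separate neighbouring genes. Which of these transcripts each of the 3 probes measures is therefore uncertain, and their values are not independent evidence of separate genes. The start of each is printed in lower case, 5′ to 3′, because these probes had the lowest mean ratios of the family. No bases are in capitals in these lines.

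Cyp3a41: actggttctcatgggaccatctccatccac
Cyp3a44 probe 1: cactgagctttctcagtgtctgtgcaagtt
Cyp3a44 probe 2: cctctgaaattaagcagacaaggaattctt

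No pair among the 9 member probes shared a run of more than 8 identical bases (36 pairs compared over the 60 bases of each probe). The probes were compared with each other only, and not with the transcripts of the other Cyp3a genes. Whether a probe also binds the RNA of a relative was therefore not tested. The most alike pair was Cyp3a13 and Cyp3a44 probe 1, which matched at 23 of 27 bases over the stretch shown next, with the 4 mismatched bases in capitals on both lines. The ratios of that pair are the most different in the family, as described below.

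Cyp3a13: gaActtGctcagtCtctgtgAaagtta
Cyp3a44 probe 1: gaGcttTctcagtGtctgtgCaagtta

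The probe of Cyp3a11 (chr5:144750340-144752207, minus strand) has 60 bases but covers 1868 bases of the genome, so it crosses an exon junction and reads spliced RNA. It is shown whole, because Cyp3a11 is the most studied enzyme of the family in mouse liver, again with no bases in capitals.

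Cyp3a11: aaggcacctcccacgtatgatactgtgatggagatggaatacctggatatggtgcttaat

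The other probes lie at chr5:144465045-144465104 for Cyp3a16, chr5:144867457-144867516 and chr5:144876319-144879536 for the probes of Cyp3a25, and chr5:136812092-136812151 for Cyp3a13, all on the minus strand. The second Cyp3a25 probe also crosses a junction, covering 3218 bases. The Por probe lies at chr5:134706526-134706585 on the plus strand. No exon or UTR was assigned to the probes, since no annotation of that build was used here.

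The question of the comparison was how RNA levels differed between the livers labelled Plin2-ASO and the livers given the scrambled oligonucleotide. Of the 8 member probes tested, 5 fell and 0 rose in the livers labelled Plin2-ASO at an adjusted p under 0.05 (limma, Benjamini-Hochberg over all 25843 probes). They were the probes of Cyp3a11, Cyp3a16, Cyp3a41 and both of Cyp3a44. Across all probes tested 5.64% fell, 4.35% rose and 9.99% passed in either direction. The median log2 ratio of the 8 member probes was -1.15, against -0.01 for all probes. Fewer cells of a type and less RNA per cell cannot be told apart in whole liver. Every member probe was well above background in both colours on all 4 arrays, and none was saturated, so none entered the test through 1 group alone.

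Cyp3a11 is the main drug-inducible Cyp3a enzyme of mouse liver. Its normalised signal, on a log2 scale, was 16.50, 16.43, 16.64 and 16.28 in control mice 1, 2, 4 and 5, and 14.49, 16.07, 14.75 and 15.60 in mice 6, 7, 9 and 10 labelled Plin2-ASO. The controls kept within a narrow band and every liver labelled Plin2-ASO lay below it, mice 6 and 9 far below and mouse 7 only just. The log2 ratio was -2.004, -0.37, -1.89 and -0.67 on arrays 1 to 4, with a mean of -1.23 ± 0.29 (SE, n = 4), which is 2.35-fold lower (limma adjusted p = 0.0396). Without array 3 the mean was -1.02 with an adjusted p of 0.0195. Leaving out any other array ended the call: the mean was -0.98 without array 1 (limma adjusted p = 0.181), and it was larger in size than the mean over 4 arrays without array 2 (-1.52, 0.0581) and without array 4 (-1.42, 0.0548). It also missed the threshold with the software's own ratios (0.0738) and without the filter on background (0.0656).

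Cyp3a16, the fetal and neonatal form, gave 15.67, 15.83, 15.72 and 15.92 in control mice 1, 2, 4 and 5. The livers labelled Plin2-ASO gave 13.96, 15.52, 14.45 and 14.94 in mice 6, 7, 9 and 10. The groups did not overlap, and the gap between the nearest livers was small because mouse 7 again came close to the controls. Its log2 ratio was -1.71, -0.32, -1.27 and -0.98 on arrays 1 to 4, with a mean of -1.07 ± 0.22 (SE, n = 4), 2.10-fold lower (limma adjusted p = 0.0264). Without array 3 the mean was -1.002 with an adjusted p of 0.0106. The call was lost without array 1 (limma adjusted p = 0.140) and without array 4 (0.0676), and narrowly with the software's own ratios (0.0517).

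Cyp3a41, the female-predominant form whose accession RefSeq now assigns to Cyp3a41a, had control signals of 15.76, 15.91, 15.49 and 15.37 in mice 1, 2, 4 and 5. The signals in mice 6, 7, 9 and 10 were 12.84, 14.83, 13.72 and 13.98. All livers labelled Plin2-ASO were below all controls, with mouse 6 the lowest by a wide margin. The log2 ratio was -2.92, -1.08, -1.78 and -1.38 on arrays 1 to 4, with a mean of -1.79 ± 0.28 (SE, n = 4), 3.46-fold lower (limma adjusted p = 0.0105). This probe passed the threshold under each of the 20 alternatives tried, with a highest adjusted p of 0.0337. These alternatives overlap, since several reuse the same log2 ratios and a looser threshold cannot end a call. Without array 3 the mean was -1.79.

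Cyp3a44, a close relative of Cyp3a41 with the same known sex difference, was measured by a dim and a bright probe. The dim one, probe 1, gave 11.88, 11.84, 10.62 and 10.40 in control mice 1, 2, 4 and 5, and 8.29, 9.43, 8.89 and 9.10 in mice 6, 7, 9 and 10. The groups were well apart, but here the controls also split, with mice 1 and 2 above mice 4 and 5. Its log2 ratio was -3.59, -2.41, -1.73 and -1.30, with a mean of -2.26 ± 0.34 (SE, n = 4), 4.78-fold lower (limma adjusted p = 0.00894), and it lost the call without array 2 (adjusted p = 0.0596). Without array 3 the mean was -2.43.

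Probe 2 of Cyp3a44 gave 15.26, 15.47, 14.86 and 15.38 in control mice 1, 2, 4 and 5. It gave 13.05, 14.77, 13.25 and 13.99 in mice 6, 7, 9 and 10. Mouse 7 lay just under the lowest control, and the other livers labelled Plin2-ASO lay clearly lower. The log2 ratio was -2.21, -0.70, -1.60 and -1.39, with a mean of -1.48 ± 0.23 (SE, n = 4), 2.78-fold lower (limma adjusted p = 0.0103). This probe passed under all 20 of these overlapping alternatives, with a highest adjusted p of 0.0499, and its mean was -1.44 without array 3. Both Cyp3a44 probes therefore fell, by amounts that differed by -0.78 (probe 1 minus probe 2, SD 0.90 over 4 arrays) with an exact two-sided sign-flip p of 0.25.

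Cyp3a25, an enzyme of liver and intestine, was the member on which the outlier marks bore most. Probe 1 was marked on array 1, and on arrays 2, 3 and 4 it gave 15.77, 15.36 and 14.94 in control mice 2, 4 and 5 and 14.90, 14.46 and 14.71 in mice 7, 9 and 10. The lower group did not overlap the controls, though mouse 5 and mouse 7 were nearly level. Its log2 ratio was -0.88, -0.90 and -0.23, with a mean of -0.67 ± 0.19 (SE, n = 3), and it did not pass the test (limma adjusted p = 0.0810). The marked spot had a ratio of -0.51, and without array 3 the mean was -0.56 (limma adjusted p = 0.0551). Probe 2 of Cyp3a25 was marked on arrays 3 and 4 and was therefore not tested. On arrays 1 and 2 it gave 14.07 and 14.23 in control mice 1 and 2, and 13.72 and 13.87 in mice 6 and 7. With the marked spots kept, its 4 log2 ratios were -0.36, -0.36, -1.40 and 0.05, with a mean of -0.52 and a limma adjusted p of 0.220. The marked spots held both its lowest and its highest ratio.

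Cyp3a13, a divergent member known from liver and intestine and placed apart from the gene cluster, gave 14.21, 14.53, 14.26 and 14.19 in control mice 1, 2, 4 and 5. It gave 14.57, 14.51, 14.05 and 14.24 in mice 6, 7, 9 and 10. The groups overlapped fully. The log2 ratio was 0.36, -0.02, -0.21 and 0.05, with a mean of 0.05 ± 0.14 (SE, n = 4), a 95% interval from -0.28 to 0.38 and a limma adjusted p of 0.865. Its sign turned under median centring and without array 1, and the mean was 0.13 without array 3. The interval does not include the mean of any probe that fell.

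Por, the reductase, gave 16.29, 16.40, 16.36 and 15.84 in control mice 1, 2, 4 and 5 and 15.91, 16.21, 16.27 and 15.80 in mice 6, 7, 9 and 10. The groups overlapped, and within each array the liver labelled Plin2-ASO was slightly the lower. The log2 ratio was -0.38, -0.19, -0.09 and -0.04, with a mean of -0.18 ± 0.13 (SE, n = 4), a 95% interval from -0.48 to 0.13 and a limma adjusted p of 0.428. It did not pass under any of the 20 alternatives, where its mean ranged from -0.34 to -0.10.

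**Figure D1:**
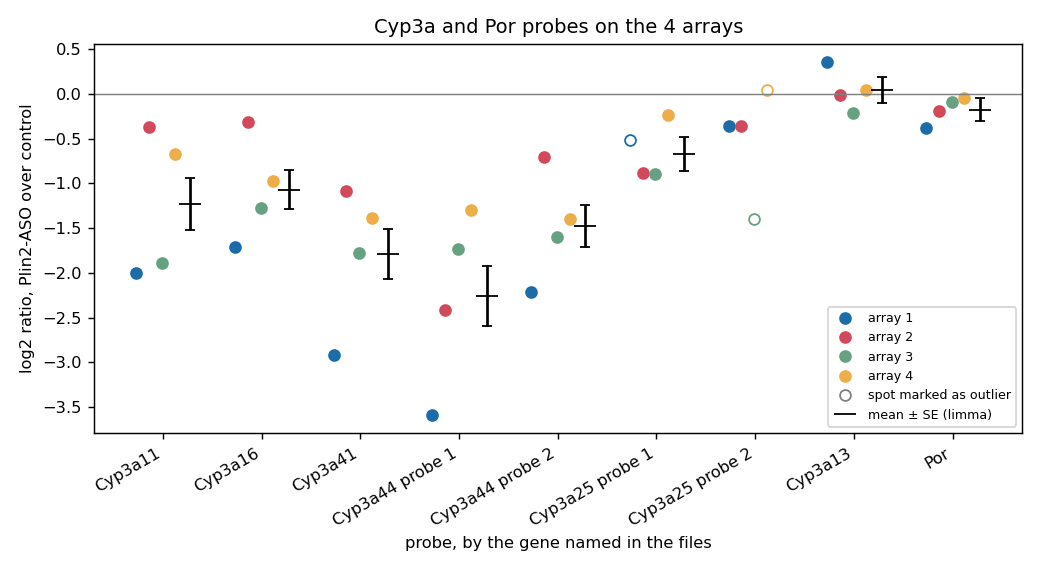
Log2 ratio of the liver labelled Plin2-ASO over the control liver for each of the 9 member probes (x axis), with 1 point per array, open points for spots marked as outliers and black bars for the limma mean ± SE of the unmarked spots. The 5 probes that fell have all 4 points under 0 and means from -2.26 to -1.07, while Cyp3a13 and Por sit near 0; the second Cyp3a25 probe has no mean because it was not tested.

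**Figure D2:**
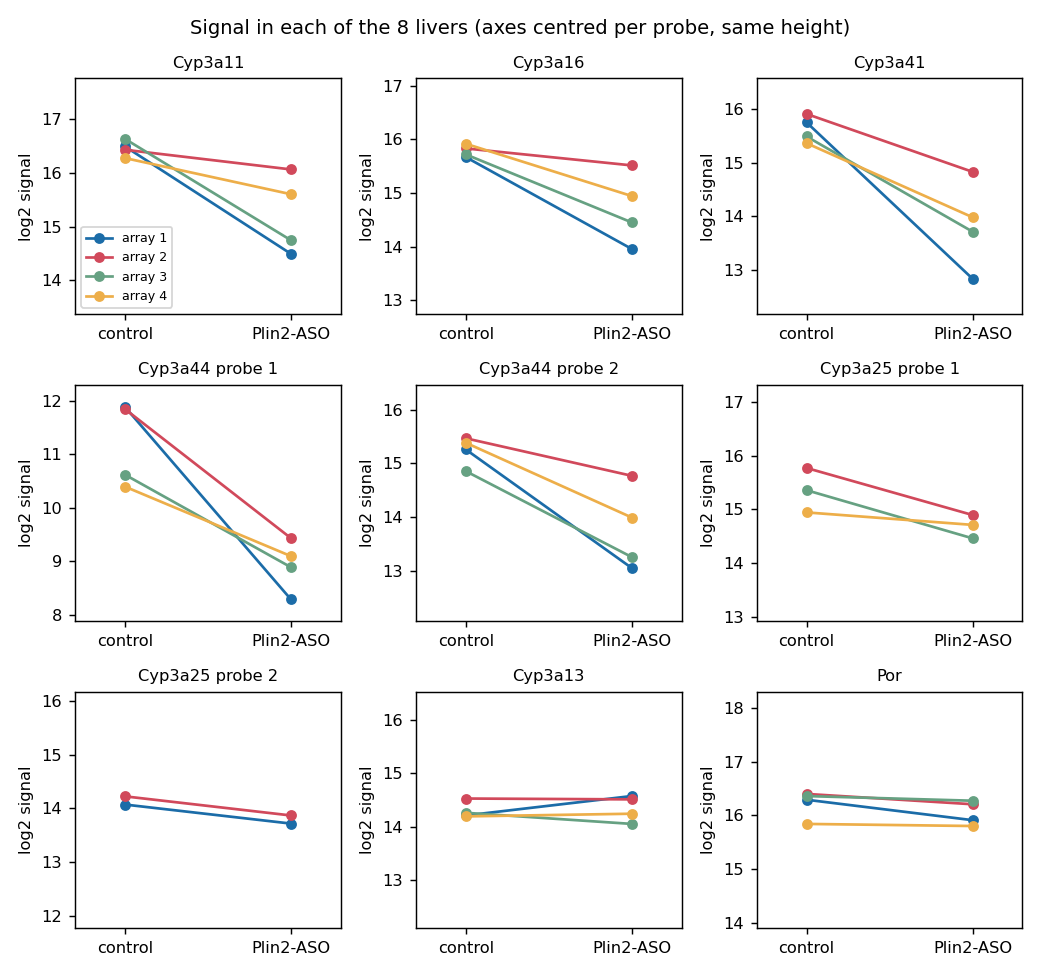
Normalised log2 signal of each probe in the 4 control livers (left) and the 4 livers labelled Plin2-ASO (right), with a line joining the pair of livers on 1 array; axes are centred per probe and have the same height, and signals of different probes are not comparable. Array 1 (mouse 6) drops most and array 2 (mouse 7) ends highest in the probes that fell, while the lines of Cyp3a13 and Por are nearly flat; marked spots are left out.

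In 6 of the 8 tested member probes every measured liver labelled Plin2-ASO lay below every control, against 9.76% of all probes tested, and in 0 every one lay above every control, against 7.76%. The ratio was under 0 on all 4 arrays for 6 member probes, the 5 that fell and Por, against 16.3% of all probes, and above 0 on all 4 for none, against 14.8%. Among 25843 probes ranked from the lowest mean ratio, Cyp3a44 probe 1 stood at 41, Cyp3a41 at 105, Cyp3a44 probe 2 at 188, Cyp3a11 at 334 and Cyp3a16 at 503. Cyp3a25 probe 1 stood at 1508, Por at 8008 and Cyp3a13 at 14668.

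**Figure D3:**
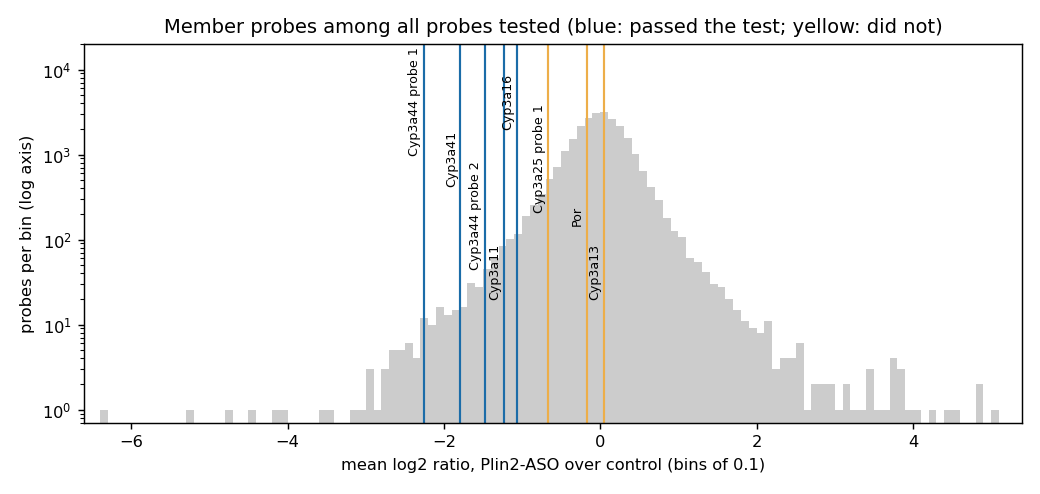
Number of probes (log axis) by mean log2 ratio of livers labelled Plin2-ASO over control for all 25843 probes tested, in bins of 0.1, with vertical lines at the 8 tested member probes. The 5 probes that fell (blue) lie in the lower tail from -2.26 to -1.07, and Cyp3a25 probe 1, Por and Cyp3a13 (yellow) lie at -0.67, -0.18 and 0.05.

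The livers labelled Plin2-ASO differed in the same order in every probe that fell. Mouse 6 had the lowest signal and mouse 7 the highest of the 4 in all 5 probes. The spread among these livers (SD of log2 signal) was 0.73 for Cyp3a11, 0.67 for Cyp3a16, 0.82 for Cyp3a41 and 0.78 for Cyp3a44 probe 2. The control livers had SDs of 0.15, 0.11, 0.25 and 0.27 for these probes in the same order. Only Cyp3a44 probe 1 among the probes that fell had the wider spread in the controls, with 0.79 against 0.48. No test of these spreads was made. The median log2 ratio of the Cyp3a probes was -2.11 on array 1, -0.70 on array 2, -1.60 on array 3 and -0.98 on array 4.

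The amounts by which the members differed from each other were compared within arrays over the 21 pairs of the 7 probes measured on all 4. With 4 arrays an exact two-sided sign-flip test cannot give a p under 0.125, and after Benjamini-Hochberg adjustment over the 21 pairs no p was under 0.202, so no pair passed. Cyp3a13 stood above Cyp3a41 by 1.84 on the log2 ratio scale (SD 0.99) and above Cyp3a44 probe 1 by 2.30 (SD 1.19), on 4 of 4 arrays in both pairs. The steadiest difference was that of Cyp3a16 and Cyp3a44 probe 2, whose log2 ratios differed by 0.50, 0.38, 0.33 and 0.42 on arrays 1 to 4, a mean of 0.41 (SD 0.07). Cyp3a11 and Cyp3a16 differed by -0.17 (SD 0.39), with both signs among the arrays.

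The promoters of the members that fell resemble one another. RefSeq (GRCm38.p6) gives the 250 bases before the start of each gene, and all 7 members had an entry, Cyp3a41 under Cyp3a41a. After alignment Cyp3a44 was identical to Cyp3a41a at 94.4% of these bases and to Cyp3a16 at 94.4%, and Cyp3a16 to Cyp3a41a at 92.8%. Cyp3a11 was identical to Cyp3a16, Cyp3a41a and Cyp3a44 at 80.0%, 77.6% and 76.8%. Cyp3a25 reached 63.6% to 66.4% with those 4 genes, Cyp3a13 reached 61.6% to 65.2% with the other Cyp3a members, and Por reached 52.4% to 58.4% with the Cyp3a genes compared. The last 150 bases before the start are printed for the members that fell and for Cyp3a25 of the same gene cluster. The tested probe of Cyp3a25 was also lower, with a mean log2 ratio of -0.67, but did not pass (limma adjusted p = 0.0810). Capitals mark the letters CAAAGTCCA, a form of the HNF4A binding motif, searched on both strands.

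Cyp3a41a, chr5:145720137-145720286, minus strand: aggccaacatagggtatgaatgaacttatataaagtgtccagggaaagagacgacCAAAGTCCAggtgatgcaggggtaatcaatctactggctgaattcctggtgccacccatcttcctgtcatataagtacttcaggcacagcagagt
Cyp3a44, chr5:145805875-145806024, minus strand: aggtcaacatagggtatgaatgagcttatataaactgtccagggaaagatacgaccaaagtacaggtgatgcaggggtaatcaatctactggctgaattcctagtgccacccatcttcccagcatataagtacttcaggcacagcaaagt
Cyp3a16, chr5:145469724-145469873, minus strand: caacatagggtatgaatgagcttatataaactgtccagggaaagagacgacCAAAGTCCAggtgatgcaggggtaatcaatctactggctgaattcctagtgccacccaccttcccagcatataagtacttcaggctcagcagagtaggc
Cyp3a11, chr5:145879855-145880004, minus strand: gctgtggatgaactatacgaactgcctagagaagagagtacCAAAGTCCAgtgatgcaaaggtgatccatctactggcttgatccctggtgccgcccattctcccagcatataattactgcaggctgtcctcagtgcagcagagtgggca
Cyp3a25, chr5:146009619-146009768, minus strand: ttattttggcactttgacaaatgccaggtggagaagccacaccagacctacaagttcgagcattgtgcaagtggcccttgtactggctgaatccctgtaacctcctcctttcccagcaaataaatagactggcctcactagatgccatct

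The HNF4A letters began 109 bases before the start of Cyp3a11, 99 before that of Cyp3a16 and 95 before that of Cyp3a41a, and 0.381% of 27025 promoters held them. They had no exact match in the windows of Cyp3a44, Cyp3a25, Cyp3a13 or Por. The letters ATTGAT, a form of the HNF6 motif, were found on either strand in Cyp3a16, Cyp3a41a and Cyp3a44, and 6.97% of all promoters held them. The STAT5 form TTCNNNGAA was in none of the members' windows and in 7.18% of all promoters. The motifs searched overlapped each other in no printed window. A match describes the letters only, and a missing match says only that they are not in this window.

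**Figure D4:**
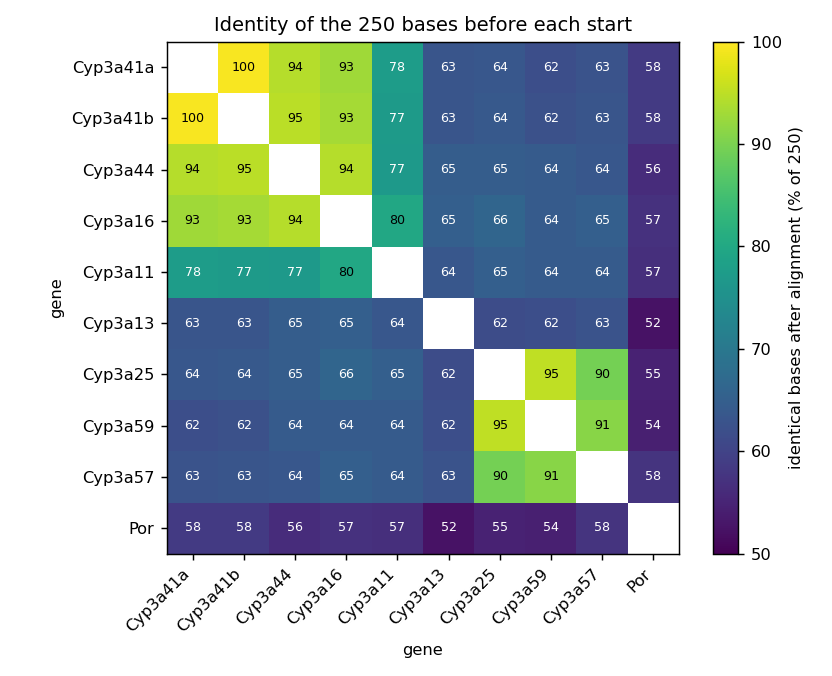
Percent of identical bases, after alignment, between the 250 bases before the start of each pair of genes (RefSeq, GRCm38.p6), including the relatives Cyp3a41b, Cyp3a57 and Cyp3a59, which had no named probe. Cyp3a41a, Cyp3a41b, Cyp3a44 and Cyp3a16 form a block of high identity, Cyp3a11 is the next closest, and Cyp3a25, Cyp3a13 and Por are more distant from that block.

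The nuclear receptors and liver factors that act on Cyp3a genes were measured with 20 genes, of which 1 rose and 0 fell, with a median log2 ratio of 0.16. Nr0b2, the bile acid induced corepressor SHP, rose with ratios of 0.40, 1.03, 0.53 and 0.45 and a mean of 0.60 ± 0.15 (SE, n = 4, limma adjusted p = 0.0486). The call was lost without array 1, 2 or 4 (highest adjusted p 0.256). Nr1i3, the receptor CAR, had 0.67, 1.46, 0.15 and 1.92 (mean 1.05, adjusted p = 0.0563). Foxa3 and Hnf4a, both liver transcription factors, had means of 0.65 and 0.78 (adjusted p = 0.0631 and 0.0673). Nr1i2, the receptor PXR, had a mean of 0.08 ± 0.18 (n = 3, limma adjusted p = 0.813). Over all probes tested, 4.35% rose and 5.64% fell. The part of these regulators in the Cyp3a values was not tested. Without array 3, 7 regulators rose and 1 fell, while 3746 of all 25843 probes rose and 4934 fell.

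Other known targets of PXR and CAR comprised 23 tested genes, of which 6 rose and 2 fell, with a median of 0.23. Cyp2c37 had ratios of 1.55, 1.45 and 1.69 on the 3 arrays where it was measured (mean 1.57 ± 0.15, SE, limma adjusted p = 0.00356), and Cyp2c29 had 1.53, 1.90, 1.61 and 0.91 (mean 1.49). Both are steroid and drug hydroxylases. Ces2a, a carboxylesterase, rose by a mean of 1.16, and Papss2, Gsta1 and Slco1a4 rose by 1.06, 0.82 and 1.54. Gstm2, a glutathione transferase, fell by 1.26 (limma adjusted p = 0.00374). The other call, of the aldo-keto reductase Akr1b7, came through the control colour, as its probe was well above background in the Plin2-ASO colour on 1 of 4 arrays. Of the 21 genes of the list well above background on at least 3 arrays in both colours, 6 rose and 1 fell. Cyp2b10, the classical CAR target, had -1.21, 2.68, -0.13 and 1.16 (mean 0.63, adjusted p = 0.503), so its arrays disagreed in sign. Cyp2c37, Ces2a, Cyp2c29 and Gstm2 passed without any 1 array. Papss2 and Gsta1 lost their call without array 1, 2 or 4 (highest adjusted p 0.118 and 0.136), and Slco1a4 lost it without array 2 or 4 (0.166). The list's counts were 3 rising and 1 falling without array 2, and 7 and 4 without array 3. Of all 25843 probes 239 rose and 269 fell without array 2, and 3746 rose and 4934 fell without array 3. Without array 2 or array 4 the list's median was -0.01 or -0.06.

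Electron partners of P450 enzymes other than Por numbered 8 tested genes, of which 1 rose and 0 fell (median 0.39). Fdx1, the mitochondrial ferredoxin, had 0.83, 0.82, 1.67 and 0.26 with a mean of 0.90 ± 0.22 (SE, n = 4, limma adjusted p = 0.0455), a call lost without array 1 or 2 (adjusted p = 0.176 and 0.182). The cytochrome b5 reductases Cyb5r1 and Cyb5r3 had means of -0.52 and 0.60, and the outer mitochondrial cytochrome b5, Cyb5b, had 0.86, none past the threshold (adjusted p from 0.0563 to 0.0625). Cyb5a, the microsomal cytochrome b5 that assists Cyp3a catalysis, had a mean of 0.28 (adjusted p = 0.364).

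Of 12 haem synthesis and breakdown genes 2 rose and 0 fell (median 0.14). Alas2, the erythroid form of the first enzyme, had 1.42, 0.81, 1.79 and 0.83 with a mean of 1.21 ± 0.19 (SE, n = 4, limma adjusted p = 0.0108). Alad, the next enzyme of the pathway, had 0.43, 1.14, 0.33 and 1.08 with a mean of 0.74 (adjusted p = 0.0433). The calls of both were lost without array 1, with adjusted p of 0.0741 for Alas2 and 0.131 for Alad, and that of Alad also without array 2 (0.228) or 4 (0.140). Alas1, the liver's own form, had a mean of 0.20 (adjusted p = 0.472). Blvrb and Cpox, the others with the smallest p, had 0.43 and -0.48 and did not pass (adjusted p = 0.160 and 0.161).

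Other enzymes that depend on Por comprised 16 tested genes, of which 5 rose and 1 fell, with a median of 0.77. Cyp8b1, the sterol 12-alpha hydroxylase of bile acid synthesis, had 1.86, 2.32, 2.19 and 2.24 (mean 2.15 ± 0.14, SE, n = 4, limma adjusted p = 0.000977). Cyp2f2 rose by a mean of 3.30 and Cyp1a2 by 2.15 on 3 arrays, both enzymes of xenobiotic oxidation. Cyp4v3 and Cyp2j5, which act on fatty acids, rose by 0.97 and 0.68. Cyp39a1, an oxysterol 7-alpha hydroxylase, fell, with -1.75, -0.35, -1.70 and -1.08 (mean -1.22 ± 0.24, SE, n = 4, limma adjusted p = 0.0227), and lost the call without array 1 (0.128) or 4 (0.0568). Cyp4v3 and Cyp2j5 lost theirs without array 1 or 2 (highest adjusted p 0.115 and 0.175), and the count that rose was 3 without either of those arrays and 8 without array 3. Of all 25843 probes 259 rose without array 1, 239 without array 2 and 3746 without array 3. Cyp4a14, a fatty acid hydroxylase, had -5.87, -0.50, -5.48 and -0.48, with a mean of -3.08 that did not pass (adjusted p = 0.0871). Its lowest arrays, 1 and 3, were also those with the lowest Cyp3a median.

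Lists of genes known for a sex difference in mouse liver, other than Cyp3a, were read next, together with perinatal liver genes. Of 15 tested female-biased genes 0 rose and 5 fell, but 3 of the 5 (Ntrk2, Prom1 and Hao2) entered the test through the control colour: in the Plin2-ASO colour Ntrk2 and Prom1 were well above background on 1 of 4 arrays and Hao2 on 0, so their size is not measured there and the test gives no support of its own. For Hao2, a hydroxyacid oxidase, the bound was at least 1.46-fold lower, taking the higher of the lowest signal well above background and the probe's own signal on each array. Among the 10 genes of the list well above background on at least 3 arrays in both colours, 0 rose and 2 fell, with a median of -0.86. Fmo2, a flavin monooxygenase and one of those 2, fell with a mean of -1.15 (limma adjusted p = 0.0142) and lost its call without array 1 or 2 (highest adjusted p 0.0902). The median of these 10 genes on arrays 1 to 4 was -2.14, -0.29, -1.58 and -0.39, beside Cyp3a medians of -2.11, -0.70, -1.60 and -0.98. Both medians were lowest on array 1 and highest on array 2, but single genes of the list departed from this. Cyp2b13 had -2.36, 2.22, -1.67 and 1.26 on arrays 1 to 4, and Cyp2b9 had -2.51, 0.85, -2.04 and 0.18. Cyp17a1 had a mean of 0.85, and the other means of these 10 genes were below 0.

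Of 16 male-biased genes 9 rose and 0 fell (median 1.56), and of the 15 well above background on at least 3 arrays in both colours 8 rose (median 1.38). Slco1a1, an organic anion transporter, rose by 4.82, Elovl3, a fatty acid elongase, by 3.76, and Hsd3b5, a ketosteroid reductase, by 5.09. Susd4, also called, was well above background in the control colour on 1 of 4 arrays, so its size is not given. Those 4 calls held without any 1 array, while the count that rose was 6 without array 1 or 2. Of all 25843 probes 259 rose without array 1 and 239 without array 2. All mice of both groups are labelled male. Of 9 perinatal liver genes 0 rose and 5 fell, and of the 5 well above background on at least 3 arrays in both colours 2 fell (median -0.85). Those 2 were Afp, the fetal serum protein, with a mean of -5.21, and the imprinted RNA H19, with -4.41. The other calls, of Ccnb1, Gpc3 and Igf2, came through the control colour, since these probes were well above background in the Plin2-ASO colour on 1, 2 and 0 of 4 arrays. For Igf2 the same bound was at least 1.88-fold lower.

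**Figure D5:**
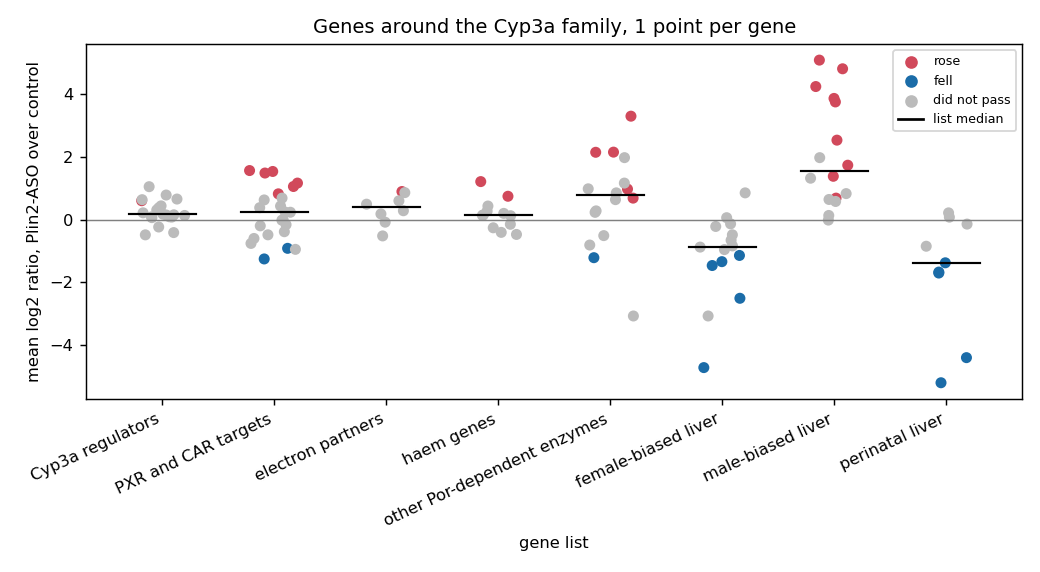
Mean log2 ratio of livers labelled Plin2-ASO over control for the tested genes of 8 lists, 1 point per gene, red where the gene rose, blue where it fell and grey where it did not pass, with a black line at each list's median. The medians were 0.16 for the regulators, 0.23 for the PXR and CAR targets and 0.39 for the electron partners. They were 0.14 for the haem genes and 0.77 for the other Por-dependent enzymes. The female-biased and perinatal lists lie lower (-0.88 and -1.38) and the male-biased list higher (1.56). Several points of these last lists rest on probes near background in 1 colour. Cyp4a14, Cyp17a1 and Cyp7b1 stand in 2 lists each.

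Markers of liver cell types were read beside the Cyp3a values, and their values here are mean log2 ratios of livers labelled Plin2-ASO over control. All 11 tested hepatocyte markers were well above background in every liver; 1 rose (G6pc, 0.95) and 2 fell (Alb, -1.70, and Apob, -0.61), and their summed log2 signal was 19.39 to 19.50 in the livers labelled Plin2-ASO against 19.75 to 19.94 in the controls. Of 7 infiltrating macrophage markers 6 fell, led by Trem2 (-2.28), Gpnmb (-2.71), Cd68 (-1.78) and Itgax (-1.43), with summed signals of 13.19 to 13.49 against 15.00 to 15.75. Of 6 Kupffer cell markers 4 rose (Cd163 3.08, Clec4f 2.37, Vsig4 2.52, Marco 2.48) and Cd5l fell (-1.02). The summed Kupffer cell signals of 15.22 to 16.24 and 15.79 to 16.55 overlapped, but they rest largely on Cd5l. Its mean log2 signal was 15.96 in the controls, the next being Adgre1 with 12.40. In the livers labelled Plin2-ASO it was 14.95, the next being Marco with 13.68. Of 8 stellate markers 4 fell (Col3a1, Col1a1, Sparc and Lrat, -2.61, -2.95, -1.73 and -1.01), with 14.35 to 14.82 against 15.81 to 16.58.

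Of 8 endothelial markers 4 fell (Egfl7, Tie1, Vwf and Pecam1, -1.04, -0.94, -0.88 and -0.54), with 13.71 to 14.21 against 14.26 to 14.70. Of 5 cholangiocyte markers 2 fell (Spp1, -2.22, and Krt19, -0.76), and Krt7, Sox9 and Cftr did not pass (0.32, 0.06 and 0.01). The summed cholangiocyte signal was 12.95 to 13.76 against 14.58 to 15.44. It rests mostly on Spp1, whose mean log2 signal in the controls was 14.68, the next being Krt7 with 10.75. The summed signal of 7 lymphocyte markers was 11.74 to 12.67 against 12.52 to 12.68. None of 4 enterocyte markers passed the test (their lowest adjusted p was 0.550 by limma), with 15.18 to 15.55 against 15.06 to 15.56. Of 7 adipocyte markers Cfd rose (3.78) and Lpl fell (-2.41), and Adipoq reached 4.10 on array 3, 0.39 on array 1, 0.52 on array 4 and near 0 on array 2. The summed adipocyte signal was 13.52 to 16.23 against 14.95 to 15.70. The part of these cell types in the Cyp3a values was not tested.

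The genes most like each member were taken as those with the smallest root mean square difference over the 4 log2 ratios, among 19593 probes of other named genes measured on all arrays. For Cyp3a11 these were Cyp39a1 (0.26), Fmo2 (0.35) and Flvcr2 (0.41), and for Cyp3a16 they were Cyp39a1 (0.22), Anln and Zcwpw1 (0.30). For Cyp3a41 they were Tubb2a (0.40), Cyp2a5 (0.41) and Ckap2l, and for Cyp3a44 probe 2 they were Hao2, Tubb2a (0.30) and Cyp39a1 (0.34). Cyp39a1 therefore stood among the nearest for 3 members, and Fmo2 also belongs to the female-biased list. The probes of Anln, Ckap2l and Hao2 that the rule picked were well above background in the Plin2-ASO colour on 0 of 4 arrays, so no distance is given for them. For Por they were Noxo1, Col13a1 and Cfap126 and for Cyp3a13 Nfkbil1, Ctsg and Tbrg3, at 0.03 to 0.05, all near a ratio of 0. The match over 4 arrays is a description, and arrays that are shared by both genes enter it.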

How the data were processed

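Liver RNA was amplified with the Ovation aminoallyl system and coupled to Cy5 (control) or Cy3 (Plin2-ASO), per the labels' protocols. Spot intensities were extracted by the authors with Feature Extraction 9.5.1.1, per the file headers, on an array annotated in build mm7; mean signal and median local background were used as deposited. The deposited log10 ratios (red over green, dye-normalised by the software) and the authors' series table of log2 ratios, equal to them for all 41174 probes, were used as alternatives with the sign turned. The log base and direction of that table were found by this match, and each of its columns had a median of 0.

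Normexp with an offset of 50 corrected the background, and loess within each array, with control spots at weight 0, normalised the ratios (limma 3.58.1, R 4.3.3). Other flags of the deposited files were used to set outlier spots to missing and to keep probes well above background on at least 3 of 4 arrays in 1 colour and measured on at least 3. Each of the 25843 probes left was tested with limma (eBayes, Benjamini-Hochberg, 0.05). Levels per liver came from quantile scaling of average signals between arrays. The ratio scale is log2, and the array is the pair of livers.

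The members and gene lists were chosen with earlier results of these data known. From each list the 4 genes with the smallest p were named, with any called against its list; the other called genes, and Nr1i2, Cyp2b10, Cyb5a, Alas1 and Cyp4a14, were chosen after their values were seen. Each listed gene was read from its brightest kept probe. Promoters were aligned with Biopython 1.88. The statistics were tested on simulated data, where 44% of 100 changes of log2 size 1 and 84% of 100 of size 2 were recovered. At each size 9 calls were false. Some genes that the rule would name are not reported here.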

Additional observations from a re-analysis of the deposited data

Results flagged for a closer look

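No member probe measured on all 4 arrays had an array or a liver that stood far from the other 3 by Dixon's criterion at 4 values. The probes of Cyp3a25, which had spots marked as outliers, had fewer values and could not be checked. Of the listed genes, 83 were checked, those with the 4 smallest p of each list or a call, and the others were not. Among the 76 of these with 4 values, 8 had such an array, and chance gives about 1 in 20. Array 3 was the far one for Vsig4 (log2 ratio 3.33), Adipoq (4.10), Alpi (-1.34) and Cyb5r3 (0.092). Array 1 was the far one for Apob (-0.38), Cd79a (-0.041) and Gstm2 (-1.64). For Elovl3 it was array 4 (2.14).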

How the results depend on the processing

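The count of member probes that fell was 5, and 0 rose in any alternative. It was 3 with the software's log ratios and 3 with the series table, where Cyp3a11 and Cyp3a16 were lost, and between 3 and 5 when 1 array was left out (3 without array 1, 2 or 4, and 5 without array 3). Over all probes 2582 were called; the count was 9975 with array quality weights, 4484 at an adjusted p under 0.1 and between 508 and 8680 with 1 array left out, the highest without array 3. Of 116 listed genes 37 were called, 73 with array quality weights and between 22 and 61 with 1 array left out. The array is the replicate block of the design, and with the channels as independent samples, without that pairing, 5 member probes, 2538 probes in all and 41 listed genes were called. The Cyp3a13 ratio turned to -0.0018 with median centring and ran from -0.058 to 0.13 with 1 array left out (below 0 without array 1), none past the threshold. Cyp3a41 and Cyp3a44 probe 2 kept their call in all 20 alternatives, Cyp3a44 probe 1 in 18 of 19, Cyp3a16 in 16 of 20 and Cyp3a11 in 14 of 20. These counts are not of independent checks, since several alternatives reuse the same log2 ratios and the looser threshold of 0.1 cannot end a call. Cyp3a25 probe 1 passed in 2, with array quality weights (limma adjusted p = 0.00932) and at the looser threshold. The cause of these changes was not tested. With 4 arrays of 1 dye orientation, probe levels reach no finer than the spread given beside each mean.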
